A study of Mus musculus with 4 samples.

Results

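Cells that met a rule for RNA of both Msln and Cd34 were found in one of 4 single-cell RNA sequencing libraries of C3H10T1/2, an established mouse line of mesenchymal progenitors, and they were 239 of the 7619 kept cells of that library. A cell was counted as double-positive when it had at least 2 unique molecular identifiers (UMIs, each marking 1 captured RNA molecule) of Msln and at least 1 of Cd34. The 239 cells are 3.14% of the library, with a 95% exact binomial interval of 2.76% to 3.55%, and they were set against the 6061 cells of the same library with no UMI of either gene, called double-negative here. Of the other kept cells, 330 had at least 2 Msln UMIs and no Cd34, 457 had Cd34 and no Msln, 443 had a single Msln UMI without Cd34 and 89 had a single Msln UMI with Cd34.

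The library with the double-positive cells, H3R26C 5-Aza, came from progenitors transduced with a lentivirus that expresses histone H3.1 with cysteine in place of arginine at position 26, selected with puromycin and treated with 5-azacitidine (5-Aza), a nucleoside that traps DNA methyltransferases and lets methylation fall. The dose was 3 µM for 24 h and the cells were collected on day 28. The other libraries were H3R26C DMSO, with the same transgene and vehicle, and H3WT 5-Aza and H3WT DMSO, with a wild-type H3.1 transgene. For the DMSO libraries no day of collection was given. The transgenes act beside the cells' own H3 genes, and the parent line is a single clone. Each condition is 1 library, so cells are not replicates of a condition, no test between conditions or classes was made, and every interval here covers counting error only.

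Mesothelin, the product of Msln, is a glycolipid-anchored surface protein of the mesothelium and of several carcinomas. Cd34 encodes a surface sialomucin of blood progenitors, vascular endothelium and interstitial fibroblast progenitors. Spp1 encodes osteopontin, a secreted phosphoprotein that binds integrins and Cd44, and Hmga2 encodes an AT-hook chromatin protein of the embryonic mesenchyme that most adult tissues silence. On GRCm38, Msln lies at chr17:25748613-25754378 on the minus strand, Cd34 at chr1:194938819-194961279 on the plus strand, Spp1 at chr5:104435118-104441050 on the plus strand and Hmga2 at chr10:120361275-120476469 on the minus strand.

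The promoters of these genes are shown because 5-Aza acts on methylation of cytosine in CpG, and CpG is printed in capitals. The sequences are RefSeq's on GRCm38.p6, from 250 bases before to 50 bases after the gene start, and the table used held 3 of the 4 genes, without Msln. Methylation was not measured in these libraries, and the letters are a description.
Cd34 promoter, chr1:194938571-194938870, plus strand: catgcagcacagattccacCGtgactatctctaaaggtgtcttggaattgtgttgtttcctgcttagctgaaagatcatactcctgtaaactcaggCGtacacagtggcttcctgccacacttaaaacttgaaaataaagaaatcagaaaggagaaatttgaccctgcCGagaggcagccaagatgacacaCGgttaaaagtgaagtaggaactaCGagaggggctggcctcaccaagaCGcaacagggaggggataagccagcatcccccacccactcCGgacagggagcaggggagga
Spp1 promoter, chr5:104434861-104435160, plus strand: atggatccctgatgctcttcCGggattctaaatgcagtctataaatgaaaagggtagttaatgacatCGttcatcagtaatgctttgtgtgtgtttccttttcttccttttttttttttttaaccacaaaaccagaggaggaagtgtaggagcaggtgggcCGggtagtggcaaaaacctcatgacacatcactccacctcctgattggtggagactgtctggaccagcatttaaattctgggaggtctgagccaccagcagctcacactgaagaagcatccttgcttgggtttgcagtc
Hmga2 promoter, chr10:120476420-120476719, minus strand: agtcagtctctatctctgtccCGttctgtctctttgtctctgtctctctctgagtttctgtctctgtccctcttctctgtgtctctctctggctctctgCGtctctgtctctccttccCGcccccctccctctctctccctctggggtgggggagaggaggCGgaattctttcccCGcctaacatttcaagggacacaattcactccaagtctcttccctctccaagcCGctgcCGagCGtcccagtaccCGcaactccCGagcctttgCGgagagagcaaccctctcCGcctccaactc

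The Cd34 window held 7 CpG sites, the Spp1 window 3 and the Hmga2 window 12. Of all 32851 RefSeq promoters of that length, 52.1% held at least as many as Cd34, 76.7% at least as many as Spp1 and 39.6% at least as many as Hmga2. By this count the Spp1 window is poorer in CpG than most promoters and the other windows lie in the middle of the range.

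No double-positive cell was found in the other libraries. There were 0 among 3710 kept cells of H3WT DMSO, 0 among 5993 of H3WT 5-Aza and 0 among 4727 of H3R26C DMSO, counts that allow shares of up to 0.0809%, 0.0501% and 0.0635% when 3 cells of the total are taken as the limit of a count of 0. The exact upper limits were 0.0994%, 0.0615% and 0.0780%. The median depth was 13149 UMIs per cell in H3WT 5-Aza and 13123 in H3R26C 5-Aza, so depth was alike in the 5-Aza libraries. It was 22420 in H3WT DMSO and 16598 in H3R26C DMSO, above that of the library that held the cells. With a single Msln UMI accepted, 7 cells of H3WT 5-Aza had both genes, which is 0.117% with an interval of 0.0470% to 0.241%, against 328 cells or 4.31% (3.86% to 4.79%) of H3R26C 5-Aza.

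The genes of the rule are given by library as a description. At least 1 Msln UMI was found in 14.5% of H3R26C 5-Aza cells (13.7% to 15.3%), 0.951% of H3WT 5-Aza (0.721% to 1.23%), 0.0846% of H3R26C DMSO (0.0231% to 0.217%) and 0.0539% of H3WT DMSO (0.00653% to 0.195%). Cd34 was found in 10.3%, 3.70%, 0.994% and 1.19% of the cells in the same order. The summed level of Msln was 32.8 CPM (the UMIs of a gene scaled to the same total for each library or class) in H3R26C 5-Aza, 1.22 in H3WT 5-Aza, 0.0476 in H3R26C DMSO and 0.0230 in H3WT DMSO. The levels of Spp1 were 4905, 847, 476 and 275 CPM and those of Hmga2 were 71.9, 9.37, 20.1 and 6.52 CPM in that order of libraries. In H3R26C DMSO and H3WT DMSO the cells with Msln numbered 4 and 2. With so little Msln RNA these libraries give no background for the 5-Aza libraries.

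Within the 239 cells, Msln ranged from 2 to 45 UMIs with a median of 5, and 46 cells stood at the lower limit of the rule while 69 had 10 or more. Cd34 ranged from 1 to 16 UMIs with a median of 3, and 70 cells had a single UMI. These values chose the cells and are a description. A rule on UMI numbers also takes deeper cells more often, and the median was 19454 UMIs per double-positive cell (quartiles 14450.5 and 25696) and 12565 per double-negative cell (9893 and 16362). After every cell was thinned at random to 5000 UMIs, 79 cells or 1.04% (0.822% to 1.29%) of the library still met the rule. The other libraries stayed at 0.

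The share of cells with Cd34 went up with the number of Msln UMIs. It was 7.01% (6.40% to 7.66%) of the 6518 cells without Msln, 16.7% (13.7% to 20.2%) with 1 Msln UMI, 29.7% (24.998% to 34.7%) with 2 to 4, 47.8% (39.1% to 56.6%) with 5 to 9 and 88.5% (79.2% to 94.6%) of the 78 cells with 10 or more. After thinning, the share was 4.36% of cells without Msln, 12.8% with 1 UMI, 35.8% with 2 to 4 and 58.6% with 5 to 9. With the library split into 3 parts of equal size by UMIs per cell, Cd34 was found in 42.6%, 42.7% and 41.7% of the cells with at least 2 Msln UMIs, and in 5.13%, 6.22% and 10.3% of those with none. These shares use the genes of the rule and describe the library only.

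**Figure D1:**
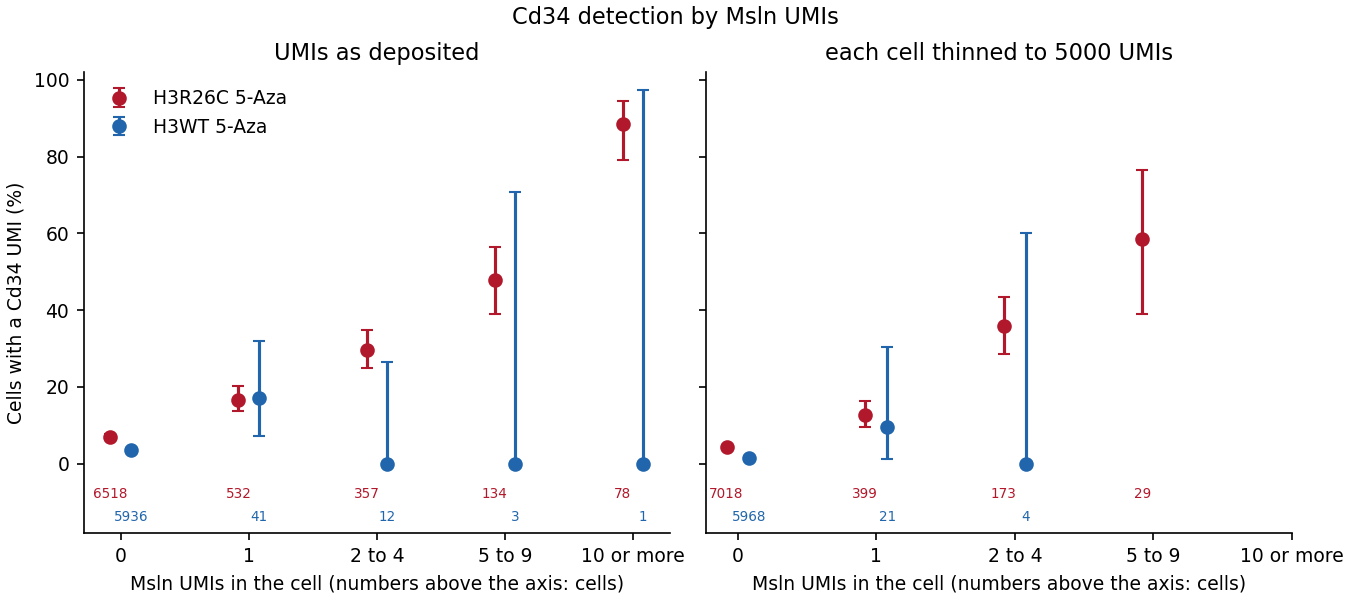
Share of cells with a Cd34 UMI (vertical axis, percent) by the number of Msln UMIs in the cell (horizontal axis) in the 5-Aza libraries, with UMIs as deposited on the left and after thinning on the right. Bars are 95% exact binomial intervals and the numbers above the axis count cells. In H3R26C 5-Aza the share runs from 7.01% without Msln to 88.5% at 10 or more UMIs, while H3WT 5-Aza has few cells beyond 1 Msln UMI.

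Cells with at least 2 Msln UMIs and cells without Msln were also set side by side within each phase of the cell cycle. Cd34 was found in 44.8%, 43.4% and 37.1% of cells with at least 2 Msln UMIs called G1, S and G2M, and in 6.67%, 7.86% and 8.06% of those without Msln. In H3WT 5-Aza, 17.1% (7.15% to 32.1%) of the 41 cells with 1 Msln UMI had Cd34, against 3.62% (3.16% to 4.13%) of the 5936 without Msln. Its 16 cells with more Msln UMIs had no Cd34. So few cells give no order over Msln in that library.

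Some barcode sequences recurred between libraries, and the cause was not tested. The H3R26C 5-Aza library shared 110 barcodes with H3WT DMSO, 228 with H3WT 5-Aza and 89 with H3R26C DMSO. Of the 239 double-positive barcodes, 5 were also kept cells of another library. No doublets were removed. The 10% of the library's cells with most UMIs held 35.1% of the double-positive and 6.39% of the double-negative cells, and without that 10% the differences in Spp1 and Hmga2 were larger, as log2 ratios of 1.86 and 2.46.

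The double-positive cells carried more RNA of Spp1 and of Hmga2 than the double-negative cells. Spp1 stood at 11237 CPM (11144 to 11331, exact Poisson) against 4307 (4293 to 4321), a log2 ratio of 1.38 (1.37 to 1.40). Hmga2 stood at 220 CPM (207 to 233) against 43.6 (42.2 to 45.02), a log2 ratio of 2.31 (2.21 to 2.41). Ratios are of CPM + 1, with an interval from the exact binomial of the counts. Over cells, the median of Spp1 was 10335 CPM, with 1860 at percentile 10 and 30340 at percentile 90, against 2365 (121 and 10683) in double-negative cells, so the ranges overlapped widely. Hmga2 was found in 50.2% (43.7% to 56.7%) of double-positive and 13.3% (12.5% to 14.2%) of double-negative cells after thinning.

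These markers followed the genes of the rule in different ways. Spp1 was 4091 CPM in cells with at least 2 Msln UMIs and no Cd34, 6471 in cells with Cd34 alone and 11450 in the 89 cells with 1 Msln UMI and Cd34. Among these classes Spp1 was thus high where both RNAs were present and, in cells with Msln alone, no higher than in double-negative cells. Hmga2 was 237 CPM with Msln alone and 50.8 with Cd34 alone, close to the double-negative level. Its high level in double-positive cells was therefore shared with cells that had Msln without Cd34.

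The ratios of both markers were also taken against double-negative cells matched for depth or phase. Against double-negative cells weighted to the same UMIs per cell, the log2 ratios were 1.36 for Spp1 and 1.75 for Hmga2. Against double-negative cells weighted to the same phases they were 1.26 and 1.71. Between G1 cells alone, an alternative added after the data were seen, they were 2.00 and 2.43.

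The cells just inside and just outside the limits are given without a test. The 19 cells with exactly 2 Msln UMIs and 1 Cd34 UMI had 14520 CPM of Spp1 and 133 of Hmga2. The 89 cells with 1 Msln UMI and Cd34 had 11450 and 112, and the 330 cells with Msln but no Cd34 had 4091 and 237. The limit on Cd34 thus cut across a larger step in Spp1 than the limit on Msln.

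The double-positive cells were also described by their number of Msln UMIs, a gene of the rule. Hmga2 was 150, 183 and 343 CPM in cells with 2 to 4, 5 to 9 and 10 or more Msln UMIs, and Hmga1, its chromatin-binding relative, was 213, 325 and 531. Slurp1, a secreted Ly6-domain modulator of nicotinic acetylcholine receptors, was 69.9, 105 and 349. Igf1 was 63.7, 66.0 and 14.9 and Ly6a, the Sca-1 surface antigen of progenitors, was 938, 828 and 560. Spp1 was 13227, 9679 and 10198 CPM. The median depth of these cells was 16714, 21444 and 21939 UMIs, and the part of depth and phase in these levels was not tested. By Cd34, cells with 1, 2 to 3 and 4 or more UMIs had 8953, 11911 and 12337 CPM of Spp1.

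**Figure D2:**
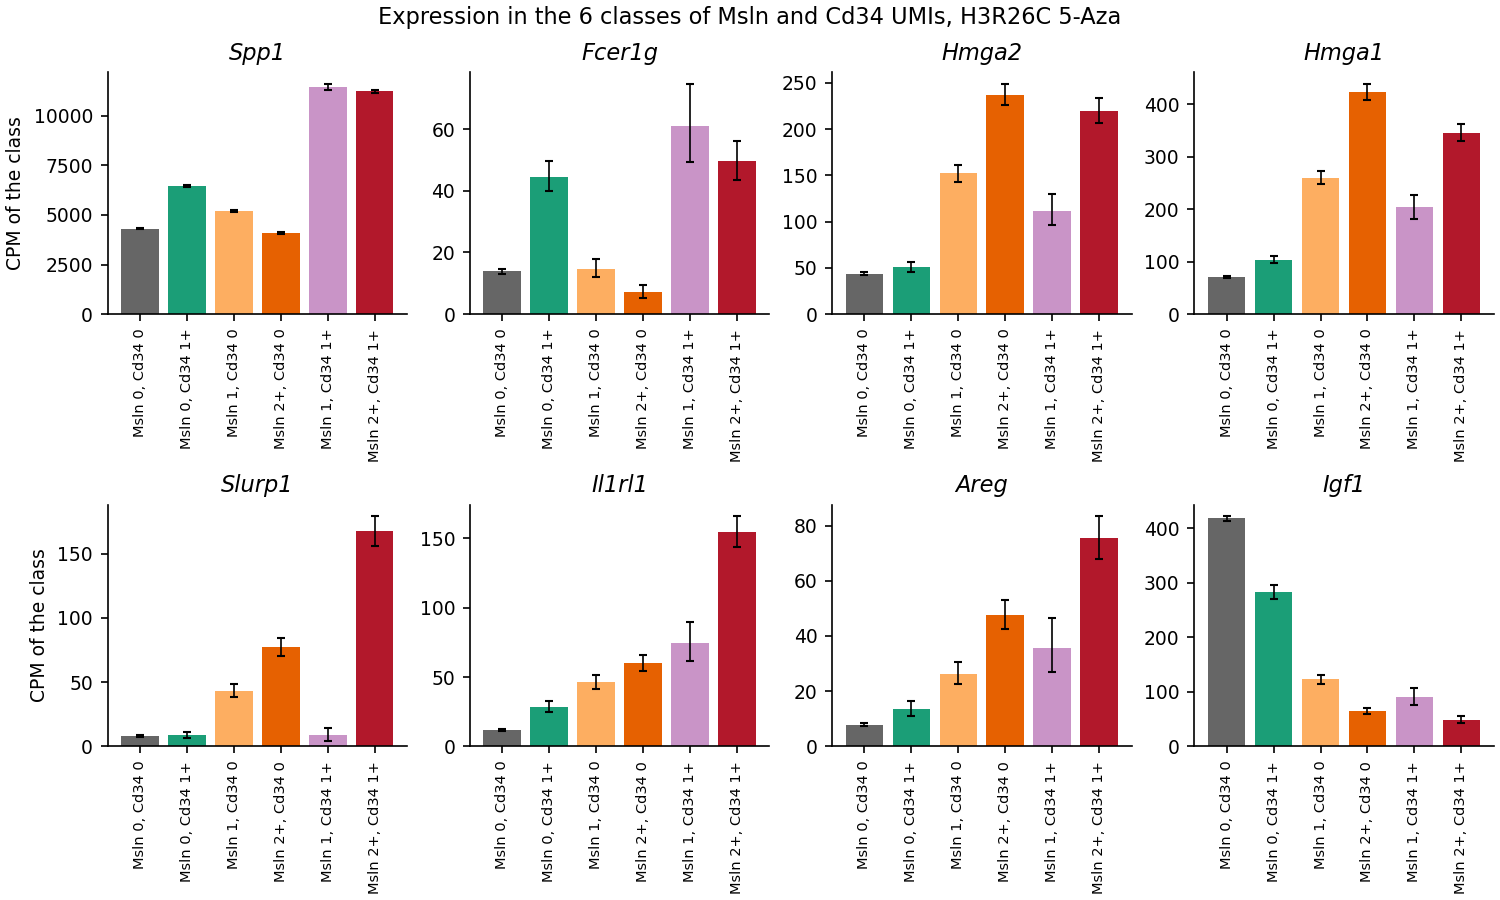
Summed expression in CPM (vertical axes, from 0) of 8 genes in the 6 classes of H3R26C 5-Aza cells set by Msln and Cd34 UMIs, with 95% exact Poisson intervals. Spp1 is highest in the classes with both RNAs and stands at 6471 CPM with Cd34 alone. Fcer1g is high in classes with Cd34, and Hmga2 and Hmga1 are high in classes with Msln. Slurp1, Il1rl1 and Areg are highest in the double-positive class, and Igf1 is lowest there at 49.1 CPM.

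Across the transcriptome, 9023 genes reached 10 CPM in the double-positive or double-negative class, with Msln and Cd34 left out. Of these, 359 genes or 3.98% were at least 2-fold higher in double-positive cells and 584 or 6.47% at least 2-fold lower, and the median log2 ratio was -0.02. The cells with Msln alone differed from double-negative cells in 380 genes (4.21%) upward and 558 (6.18%) downward, while those with Cd34 alone did so in 40 (0.443%) and 17 (0.188%). By these counts the classes with at least 2 Msln UMIs stood farther from double-negative cells than the class with Cd34 alone. The limits were unlike, at least 2 Msln UMIs against at least 1 of Cd34. Median depth was 19780 UMIs with Msln alone and 14563 with Cd34 alone, and 67.6% and 30.6% were called S or G2M. Depth was not matched in these counts, and the genes counted were chosen by their double-positive and double-negative levels. These counts have no p-value, and the number of UMIs differs between the classes.

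The genes highest in double-positive cells relative to double-negative cells were led by Slurp1 and by the receptor of interleukin 33. The 4 markers were left out of the ranking, in which Hmga2, at 2.31, would stand above Hmga1. Among other genes with at least 50 CPM in either class, the 15 with the largest ratios were Slurp1, Il1rl1, Areg, Hbegf, Nefl, Plaur, Notum, Klf5, Hmga1, Prkg2, Sema7a, Tpd52, Sprr1a, Stmn2 and Tmem37, with log2 ratios from 4.23 down to 2.08. Slurp1 was 168 CPM (156 to 179) against 7.96 (7.36 to 8.59), and 30.5% of double-positive against 1.96% of double-negative cells had it after thinning. Il1rl1, which encodes the ST2 receptor, was 155 CPM against 11.9, a log2 ratio of 3.60 (3.47 to 3.73). Il1rl1 was found in 42.3% of double-positive and 3.99% of double-negative cells after thinning.

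Several of these genes encode surface or secreted signals. Areg (amphiregulin) was 75.4 CPM against 7.89 and Hbegf 107 against 13.8, and both are ligands of the EGF receptor. Plaur, the urokinase receptor, was 125 against 20.2. Notum, a secreted esterase that inactivates Wnt proteins, was 71.0 against 11.1. Sema7a, a membrane-anchored semaphorin, was 59.8 against 12.5.

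Klf5, a zinc finger transcription factor, was 107 CPM against 19.5. Hmga1 was 345 (329 to 362) against 69.7 (67.9 to 71.5), a log2 ratio of 2.29 beside the 2.31 of Hmga2. Prkg2, a cyclic GMP-dependent kinase, was 139 against 28.1. Nefl (neurofilament light chain) and Stmn2 (a tubulin-binding stathmin), best known from neurons, were 54.2 against 7.71 and 66.7 against 14.99, and Sprr1a, of the cornified envelope of keratinocytes, was 131 against 28.4. Tpd52 and Tmem37 completed the set at 138 against 30.0 and 96.0 against 21.97.

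Of the 15 high genes, all but Tmem37 had a larger ratio in cells with Msln alone than in cells with Cd34 alone. In cells with Msln alone, Slurp1 had a log2 ratio over double-negative cells of 3.12, Nefl 3.83, Hmga1 2.58, Areg 2.45 and Hbegf 2.44, against 0.10, -1.24, 0.57, 0.70 and 0.56 in cells with Cd34 alone. Il1rl1 was higher in both, at 2.25 and 1.19. Notum and Sprr1a were over 2-fold above both single-positive levels in the double-positive cells, at 71.0 CPM against 26.8 with Msln alone and 8.89 with Cd34 alone for Notum, and 131 against 43.5 and 31.8 for Sprr1a. The same held for Il1rl1 at 155 CPM against 60.03 and 28.3, Slurp1 at 168 against 77.2 and 8.62, and Tmem37 at 96.0 against 45.4 and 46.2. Of the 829 Slurp1 UMIs of the class, 540 lay in the 69 cells with 10 or more Msln UMIs. The 106 cells with 2 to 4 Msln UMIs had 69.9 CPM of Slurp1, not above the level with Msln alone. Il1rl1 was 109 CPM in those 106 cells, above the 60.03 with Msln alone by less than in the whole class. Nefl was higher with Msln alone, 122 CPM, than in double-positive cells. Few cells carried the level of Sprr1a, with a median of 0 per double-positive cell and 106 of 646 UMIs in 1 cell. After thinning it was found in 14.2% (10.1% to 19.3%) of double-positive cells and 11.2% (8.02% to 15.1%) of cells with Msln alone.

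Depth matching lowered most of these ratios and turned none of them. With double-negative cells weighted to the UMIs of the double-positive cells, Slurp1 was at 3.46, Il1rl1 at 3.40, Hbegf at 2.56, Hmga1 at 1.64 and Nefl at 1.63, while Notum was at 2.95, above its unmatched 2.57. The number of genes at least 2-fold higher was 203 in that comparison and 234 with matched phases, against 359 without matching. The number lower was 429 and 433, against 584.

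**Figure D3:**
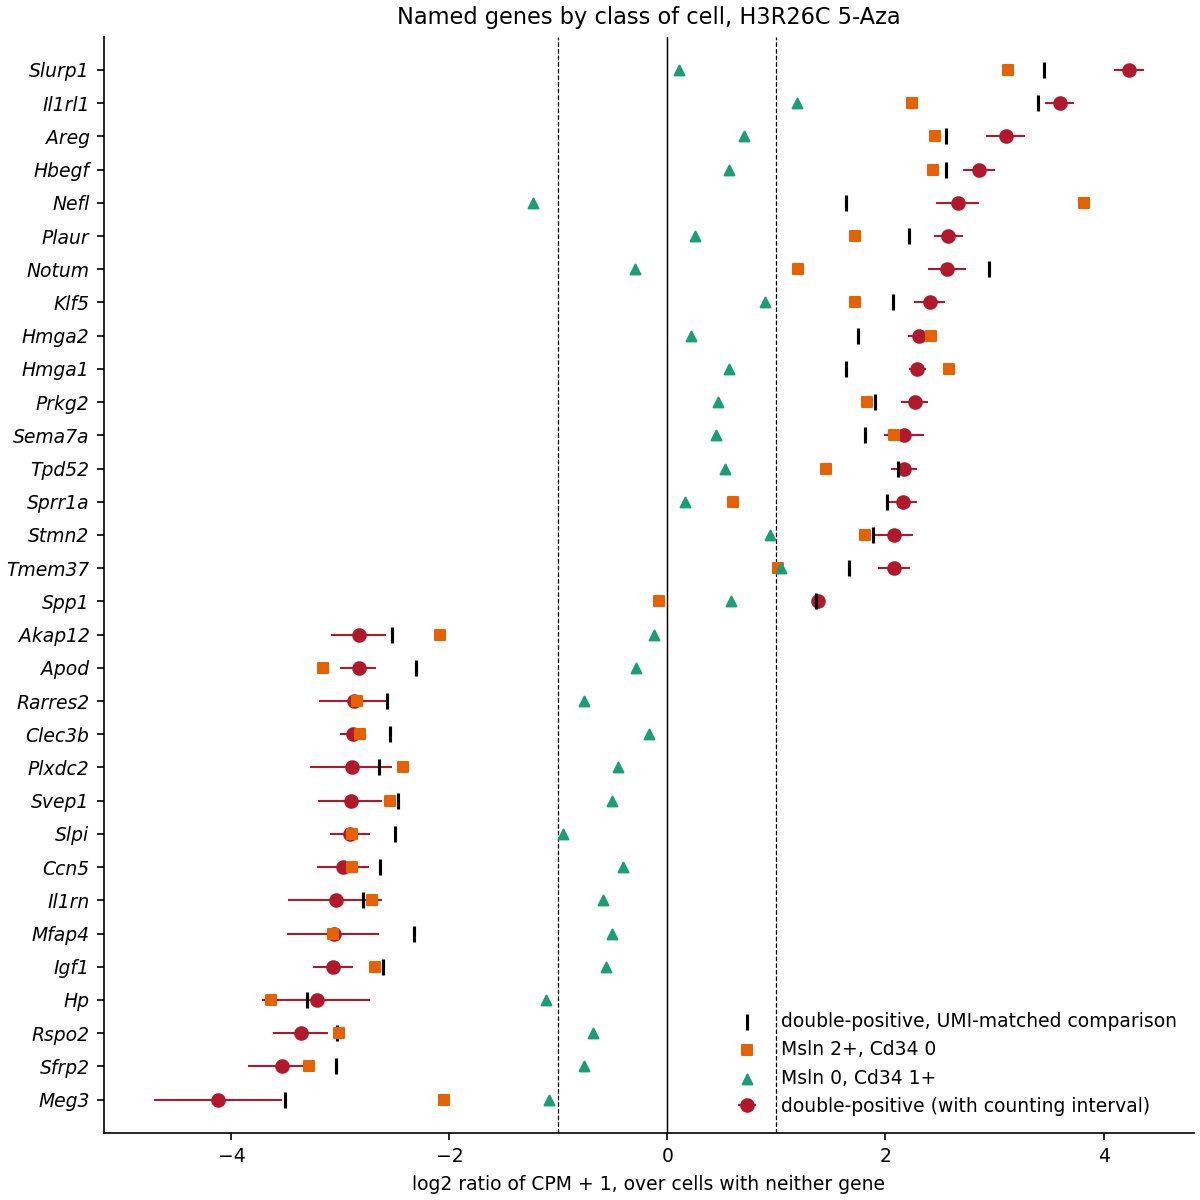
Log2 ratio of CPM + 1 over cells with neither gene (horizontal axis) for Spp1, Hmga2 and the 15 other genes with the largest ratio in each direction (vertical axis), in double-positive cells with counting intervals, in the same cells against UMI-matched cells, and in cells with Msln or Cd34 alone. Dashed lines mark a 2-fold difference. The Msln-alone squares lie near the double-positive points for most genes, and the Cd34-alone triangles nearer 0.

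The 15 with the largest negative ratios were Meg3, Sfrp2, Rspo2, Hp, Igf1, Mfap4, Il1rn, Ccn5, Slpi, Svep1, Plxdc2, Clec3b, Rarres2, Apod and Akap12, from -4.12 to -2.83. Meg3, an imprinted non-coding RNA, was 2.83 CPM against 65.8, with 14 UMIs in all 239 cells. Igf1, the growth factor, was 49.1 (43.1 to 55.7) against 418 (414 to 423), and 11.3% against 50.7% of thinned cells had it. Sfrp2 and Rspo2, secreted modulators of Wnt signalling, were 16.8 against 205 and 24.5 against 260.

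Clec3b (tetranectin) was 118 CPM against 880 and Apod, a lipocalin, 58.8 against 425. Slpi, a protease inhibitor, was 48.9 against 374, and Il1rn, the interleukin 1 receptor antagonist, 7.28 against 66.9. In cells with Msln alone these genes were about as low, with log2 ratios of -2.82 for Clec3b, -3.16 for Apod, -2.89 for Slpi and -2.71 for Il1rn. In cells with Cd34 alone the same genes were at -0.17, -0.29, -0.96 and -0.59.

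Genes of the extracellular matrix were lower as groups. Of the 16 elastic fibre genes compared, 12 were at least 2-fold lower and 0 higher, with a median log2 ratio of -1.42, among them Fbn1 (fibrillin 1) at 81.3 CPM against 287, Efemp1 at 63.9 against 224 and Mfap5 at 4.85 against 46.8. Of 18 collagen chains, 9 were lower and 0 higher, with a median of -0.92. Col3a1 was 1222 against 3237, Col6a1 357 against 1075 and Col15a1 36.6 against 238, whereas Col1a1, of the main fibrillar collagen, was 3880 against 3166. The collagen genes were thus not lower to the same extent. Against depth-matched cells the medians were -1.04 for the elastic fibre genes and -0.58 for the collagens. Cells with Msln alone were also low in these lists, which summed to 1257 and 6088 CPM there, against 1364 and 8450 in double-positive cells.

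Of 9 small leucine-rich proteoglycans 5 were lower and 0 higher, including Lum (lumican) at 183 CPM against 1165. Of 11 metalloproteinases and inhibitors 6 were lower and 1 higher: Mmp2, a gelatinase, was 108 against 520, and Timp1, an inhibitor of these enzymes, was 606 against 288. Of 9 genes of the IGF axis (IGF-binding proteins, Igf1 and its receptor) 4 were lower and 0 higher, with Igfbp5 at 254 against 886. Of 10 CCN and Yap target genes 3 were lower and 1 higher, with Ccn3 at 51.9 against 331 and Ankrd1 at 148 against 59.4. Against depth-matched cells the median went from -1.20 to -0.64 for the proteoglycans and from -1.11 to -0.76 for the metalloproteinases and inhibitors. It went from -0.73 to -0.49 for the IGF axis and from -0.31 to -0.18 for the CCN and Yap targets.

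Of 8 complement genes compared 6 were lower and 0 higher, with a median of -2.31, and C3 was 19.4 CPM against 113. Of 9 chemokines 4 were lower and 1 higher, Cxcl12 being 137 against 830 and Cxcl10 15.6 against 4.13. Ccl2, at 143 against 71.4, lay at the 2-fold line.

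Over all genes compared 10.5% passed 2-fold in either direction, and counts of this order in a list say nothing particular of its members. Of 20 interferon-stimulated genes 3 were lower and 0 higher, and 18 had ratios below 0, with Ifi27l2a at 222 CPM against 717, while Isg15 was 339 against 373. Of 12 genes of MHC class I presentation 0 passed 2-fold and 12 had ratios below 0, and B2m was 414 against 758. Over all 9023 genes compared, 4675 had ratios below 0. Of 9 PRC2 genes 0 passed, with Ezh2, the methyltransferase, at 45.9 against 28.8. Of 6 DNA methylation enzymes 1 was higher, Uhrf1, which brings Dnmt1 to replicating DNA, at 50.3 against 18.7, and Dnmt1 was 62.9 against 40.97.

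The oncofetal list, of genes used before birth, divided. Hmga2 and Hmga1 were higher and Igf2 and Dlk1 were lower, at 23.7 CPM against 50.9 and 12.3 against 38.2, among 7 genes compared. Igf2bp1 and Igf2bp2, which encode RNA-binding proteins, were at 32.1 against 25.01 and 49.7 against 38.1, and Lin28a and Lin28b had no UMI in double-positive cells. Of 7 genes for osteopontin and its receptors, Spp1 and Cd44 were higher, Cd44 at 106 against 49.9. The integrin chains compared, such as Itgav at 39.0 against 51.1 and Itgb1 at 449 against 408, stayed within 2-fold.

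Early-response, stress and other lists are given by their counts, to be read against the same 10.5%. Of 14 AP-1 and early genes 1 was higher and 2 lower: Fosl1, an AP-1 subunit, was 127 CPM against 43.3, Fos 23.7 against 50.2 and Nr4a1 9.30 against 36.7. Of 7 heat shock genes 1 was higher, Hspb1 at 12.1 against 5.35. Of 8 CDK inhibitor and p53 target genes 1 was lower, Trp53inp1 at 8.49 against 18.0, and Cdkn1a, which encodes the inhibitor p21, was 392 against 292. Of 10 mesenchymal transcription factors 1 was lower, Tbx18 at 4.85 against 18.6, and of 5 nuclear-retained RNAs 1, Meg3. Of 4 genes that mark Enpp2-high cells 1 was lower, Enpp2 itself (autotaxin, which makes lysophosphatidic acid) at 60.8 against 238.

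**Figure D4:**
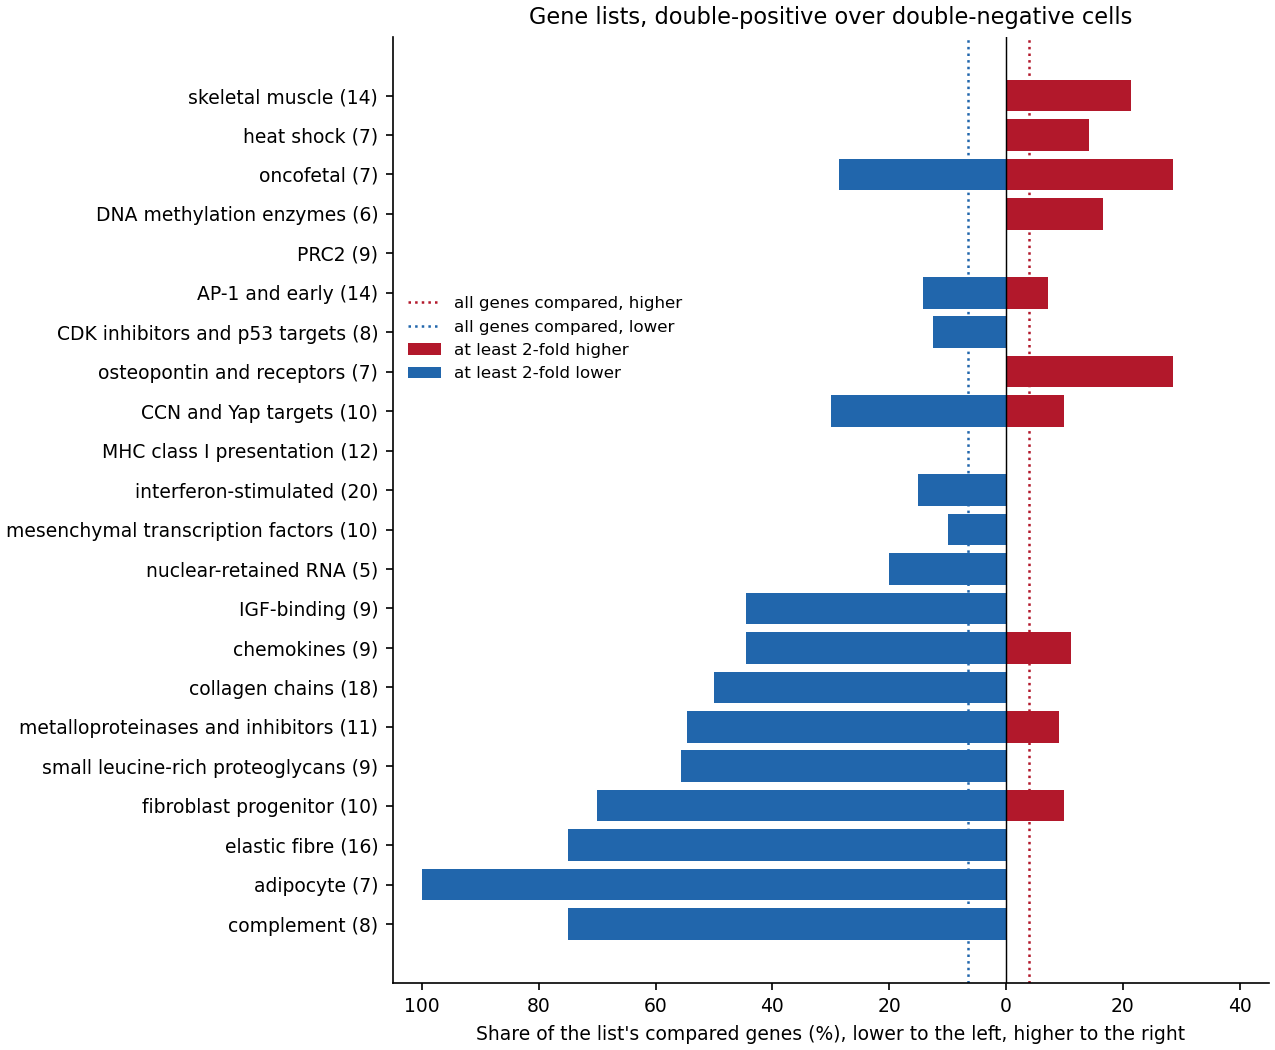
Share of the compared genes of each list (horizontal axis, percent, lower to the left and higher to the right) that were at least 2-fold lower or higher in double-positive than in double-negative cells, with the number compared in parentheses, for lists with at least 5 genes compared. Dotted lines give the shares over all 9023 genes, 6.47% and 3.98%. Elastic fibre, complement, adipocyte and fibroblast progenitor lists lie farthest to the left.

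Defining markers of other cell types were checked in the double-positive cells. Beside Msln, the mesothelial list had 9 of 15 genes at 0, among them Wt1, Upk3b, Calb2, Krt7 and Muc16, whose product binds mesothelin. Muc16 had no UMI in double-negative cells either. Its most abundant gene was Pdpn at 49.7 CPM against 89.1, and the list summed to 57.8 CPM against 113. Of 10 endothelial genes 5 were at 0, Vwf, Tek and Cldn5 included, and the list summed to 9.70 CPM against 16.8, led by Cdh5 at 6.67. All 6 epithelial genes, Epcam and Cdh1 among them, were at 0. They summed to 0.302 CPM in double-negative cells, so these zeros do not set the classes apart.

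The blood list had 6 of 10 genes at 0, among them Tyrobp, Laptm5 and Kit, and Ptprc stood at 2.63 CPM. Its most abundant gene was Fcer1g, a signalling chain of immune receptors, at 49.7 CPM (43.7 to 56.3) against 13.9 (13.1 to 14.7). Fcer1g was 44.6 CPM with Cd34 alone and 7.03 with Msln alone, so it went with Cd34. After thinning, it was found in 19.2% of double-positive and 3.79% of double-negative cells.

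Of the 10 fibroblast progenitor genes compared, 7 were lower and 1 higher, with a median of -1.24. Ly6a was 787 CPM against 1752, Dcn (decorin) 372 against 1771, Thy1 9.30 against 56.8 and Pdgfra 74.4 against 188. Anxa3, an annexin, was 352 against 155. The cells with Cd34 alone summed to 4477 CPM over the list, near the 4814 of double-negative cells, and those with Msln alone to 1938, near the 2133 of double-positive cells.

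Adipocyte markers were lower, and those of other mesenchymal types were so in part. All 7 adipocyte genes compared were at least 2-fold lower, Lpl at 16.2 CPM against 90.6 and Pparg at 3.44 against 18.5, and Adipoq and Plin1 had no UMI. Of 3 osteoblast genes 2 were lower, with Phex at 39.4 against 117, and of 2 chondrocyte genes none passed 2-fold, Sox9 being 190 against 191. Of 2 smooth muscle genes Tagln was lower at 3.23 against 15.3 and Acta2 was 438 against 471. The summed lists were 74.2 against 285 CPM for adipocytes and 82.1 against 179 for osteoblasts.

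The skeletal muscle genes came from few cells. Of 14 genes 3 were at least 2-fold higher, Myh3, Actc1 and Des, and 0 lower, with a median of 0.46 that was -0.82 against depth-matched cells, and the list summed to 3576 CPM against 2126. Its most abundant gene was Acta1 at 927 against 514. Yet 8 of the 239 cells, those with at least 1% of their UMIs from these genes, held 87.7% of the muscle UMIs of the class, and the median cell had 0.0274% against 0.0395%. Without such cells in either class the median of the list was -0.32. Spp1 and Hmga2 were then at 1.42 and 2.35, and 374 genes were higher and 631 lower. Cells with Msln alone held more muscle-rich cells, 33 of 330 or 10%, and the list summed to 7768 CPM in them.

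More of the double-positive cells were in cycle. By Seurat's scores, 63.6% (57.2% to 69.7%) were called S or G2M, against 26.8% (25.6% to 27.9%) of double-negative cells, 67.6% (62.2% to 72.6%) with Msln alone and 30.6% (26.4% to 35.1%) with Cd34 alone. Called on cells thinned to 5000 UMIs, the shares were 62.8% and 31.5% in double-positive and double-negative cells, and double-negative cells weighted to the UMIs of the double-positive cells had 40.6%. Of the phase genes themselves, 16 of 39 S genes and 10 of 52 G2M genes were at least 2-fold higher and 0 lower, for example Mcm6, a helicase subunit, at 109 CPM against 36.7 and Top2a, a topoisomerase of dividing cells, at 322 against 142. Against depth-matched cells the median log2 ratio went from 0.94 to 0.43 for the S genes and from 0.79 to -0.06 for the G2M genes. With matched phases the log2 ratio of Mcm6 was 0.67 and that of Top2a 0.02. Mitochondrial UMIs were lower, with a median of 1.79% against 2.65%.

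Phase divided the double-positive cells in their markers. Spp1 was 16162 CPM in G1, 10895 in S and 7518 in G2M, whereas double-negative cells had 4026, 5117 and 4746. Hmga2 was 146, 228 and 272 in the double-positive and 26.3, 81.2 and 84.3 in the double-negative cells. Hmga2 was thus higher in cycling cells of either class and above the double-negative level in every phase, while the order of Spp1 over phases differed between the classes, a difference that was not tested.

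Some groups were put together only after their values had been seen, so their counts describe and support nothing further. Of 11 genes of serine synthesis and the amino acid response 7 were at least 2-fold higher and 0 lower. The list summed to 1533 CPM in double-positive cells and 1538 with Msln alone, so its high level was shared with that class. It summed to 783 CPM with Cd34 alone and 656 in double-negative cells. Its median log2 ratio of 1.38 was 0.84 against depth-matched cells. Phgdh, the first enzyme of serine synthesis, was 323 CPM against 86.2, Psat1, the next, 280 against 72.0, and Asns, which makes asparagine, 152 against 45.04, while Atf4, the transcription factor that drives this response, was 219 against 175. Of 7 EGF receptor ligands and receptors 4 were higher and 0 lower: Areg, Hbegf, Ereg at 43.7 against 6.16 and Btc at 45.7 against 9.20. Their receptor Egfr was 42.9 against 83.8 and did not pass 2-fold.

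In the same manner, Il33, the ligand of the Il1rl1 receptor, was 592 CPM (log2 ratio 1.49) against 210, so RNA of the ligand and of its receptor was higher in the same class, while Il1rap, which encodes the shared co-receptor, was 6.47 against 7.11. Of 5 genes of plasminogen activation Plaur was higher and 3 were lower, with Serpine2, a protease inhibitor, at 417 against 1248. Of 8 secreted Wnt regulators Notum and Wnt10a were higher and 5 were lower, Wnt10a at 88.3 against 24.9 and Sfrp4 at 11.3 against 81.9.

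The genes most alike in pattern were sought as those higher in both single-positive classes, ranked by the smaller of the ratios. They were Chrna1, Il1rl1, Ankrd1, Myh3, Tmem37, Stmn2, Klf5, Actn3, Il33 and Ttn, and the smaller ratio ran from 1.23 for Chrna1 and 1.19 for Il1rl1 to 0.81 for Ttn. This likeness was taken over the 4 classes with a limit of 2 Msln UMIs. Chrna1, Myh3, Actn3 and Ttn are muscle genes, and without the muscle-rich cells the double-positive ratio was 1.55 for Chrna1, 0.00 for Myh3, -1.36 for Actn3 and -0.67 for Ttn. It was 3.61 for Il1rl1, 2.63 for Klf5, 2.16 for Tmem37, 2.13 for Stmn2 and 1.53 for Il33. Against depth-matched cells, Chrna1 was at -0.09 and Ankrd1 at 0.14.

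Clusters placed the cells among the rest. With all 22049 kept cells clustered together, 172 of the double-positive cells (72.0%) fell in a cluster of 5583 cells led by Crabp1, Slpi and Col8a1, of which 4365 came from H3R26C 5-Aza, and 35 (14.6%) in a cluster led by histone and mitosis genes. Of all 7619 kept cells of H3R26C 5-Aza, 4365 were in the first cluster and 1245 in the second. The second thus held no larger share of the double-positive cells than of the library. No cluster was led by Msln or Cd34, and the share was also 72.0% with those genes left out of the variable genes. When the H3R26C 5-Aza library was clustered on its own, a step added after the data were seen, 152 of the 239 cells (63.6%) fell in a cluster of 348 cells whose leading genes were Msln, Cd34, Il18r1, Cxcl10 and Slurp1. That cluster was not named for a cell type. Without Msln and Cd34 among the variable genes, 145 cells (60.7%) fell in such a cluster, again led by Msln and Cd34. In the cluster of 210 cells led by Adipoq, Msln was 1.34 CPM and Cd34 1.005, the lowest levels among the clusters of this library. Whether these UMIs came from those cells or from stray RNA was not tested. Spp1 was 12267 CPM in that cluster, so high Spp1 was not limited to cells with both RNAs.

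The H3WT 5-Aza library, which the rule did not use, held 57 cells with at least 1 Msln UMI, and these were set against its 5721 cells with neither gene. Of the 15 high genes ranked above, the markers left out, 13 were above 0 in the H3WT cells and 10 at least 2-fold higher. Of the 9290 genes at 10 CPM or more in either class, 8.54% were at least 2-fold higher. The intervals of 11 of the 15 lay above 0. Areg, Nefl, Notum, Sema7a, Sprr1a and Stmn2 were under 10 CPM in both classes of that library and so outside the 9290. Of the calls at least 2-fold higher, Areg rested on 3 UMIs and Stmn2 on 7 UMIs of 1 cell. For the 15 lowest, 15 were below 0 and 14 at least 2-fold lower, where 5.92% of genes were. Slurp1 was 80.0 CPM against 2.91, a log2 ratio of 4.37 (4.04 to 4.70), Hmga2 110 against 7.55 (3.69, 3.41 to 3.96) and Hmga1 244 against 21.6 (3.44, 3.26 to 3.62). Igf1 was 144 against 673 and Clec3b 542 against 2219. Spp1 was 1362 CPM against 826, a log2 ratio of 0.72 (0.65 to 0.79) that was 0.24 against depth-matched cells.

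Other genes did not follow in the H3WT cells. Sema7a was 1.74 CPM against 4.67 on 2 UMIs, a log2 ratio of -1.05 (-2.23 to 0.37). Nefl had 0 UMIs among 57 cells and was also at 0 CPM in the cells with neither gene, so it gives no comparison there. In cells with Msln in H3R26C 5-Aza, Sema7a was 48.0 CPM and Nefl 76.5 CPM. Fcer1g was 3.48 against 12.3, a log2 ratio of -1.57 (-2.77 to -0.42), where cells with Msln in H3R26C 5-Aza had 0.76. Cells of H3R26C 5-Aza with at least 2 Msln UMIs and no Cd34 were also lower, at 7.03 CPM of Fcer1g against 13.9. The H3WT cells were also rich in muscle RNA, with Ttn at 5772 against 576 and Acta1 at 3443 against 495, deeper, at a median of 20157 UMIs against 13074, and more often in S or G2M, at 50.9% (37.3% to 64.4%) against 19.9%. Matched for depth, Slurp1 was at 3.39, Hmga1 at 2.38, Hmga2 at 2.31 and Igf1 at -1.81. Other ratios were under 2-fold once matched, with Areg going from 1.28 to 0.36, Stmn2 from 2.03 to 0.71, Hbegf from 1.48 to 0.87, Sfrp2 from -1.37 to -0.99 and Mfap4 from -1.51 to -0.97. Meg3, the lowest of the low genes in double-positive cells, was at -0.60 in the H3WT cells and at -0.13 once matched. The part of muscle RNA in these ratios was not tested.

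**Figure D5:**
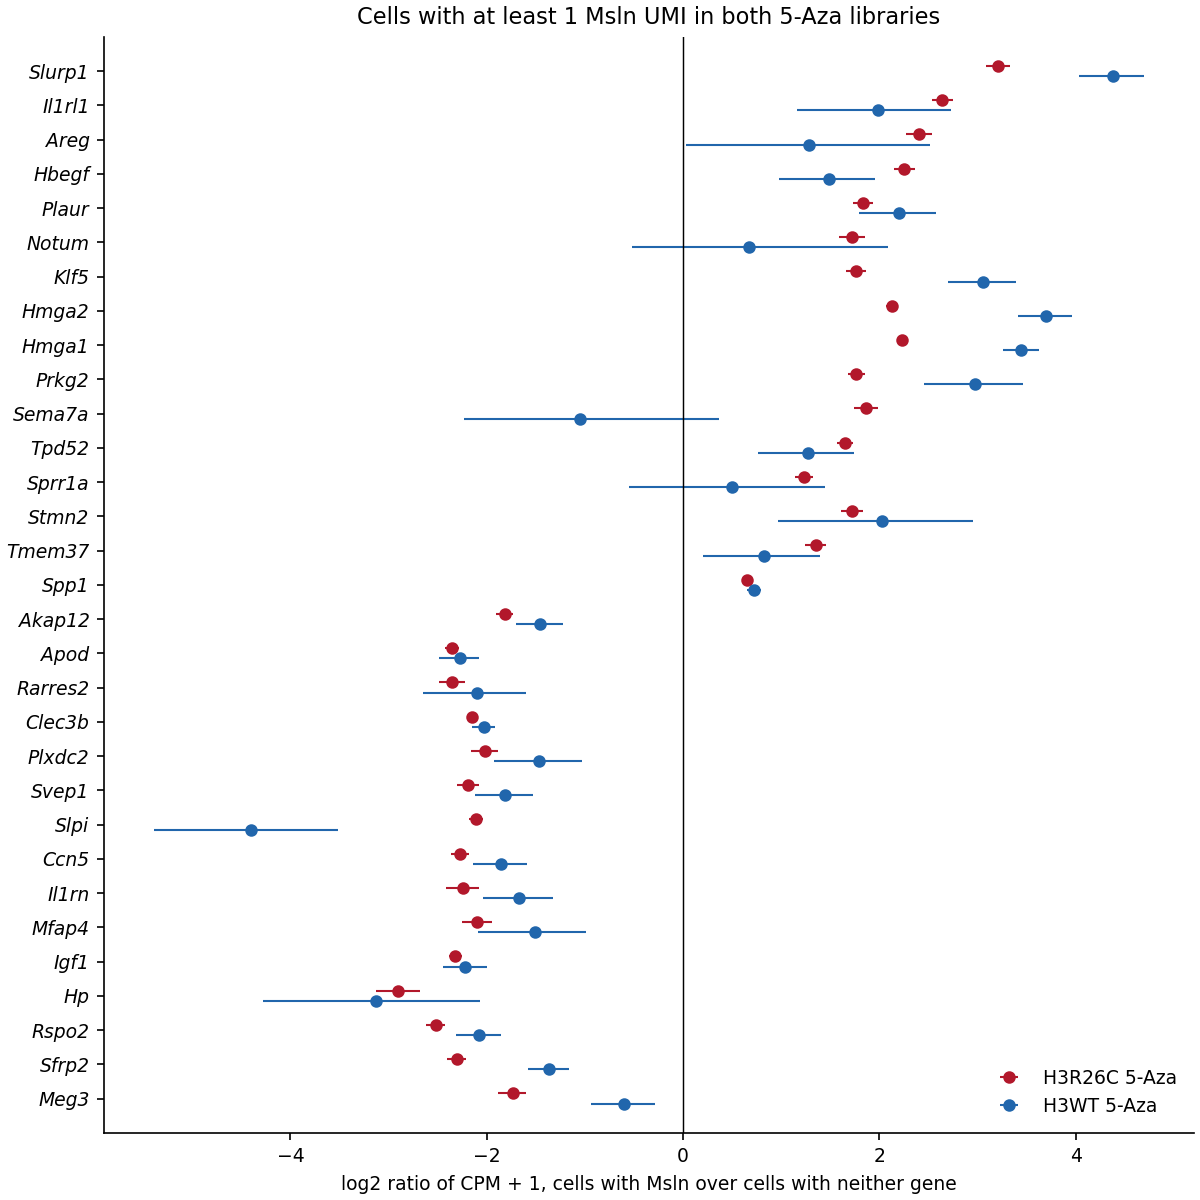
Log2 ratio of CPM + 1 in cells with at least 1 Msln UMI over cells with neither gene (horizontal axis) in H3R26C 5-Aza and H3WT 5-Aza, with counting intervals, for Spp1, Hmga2 and the other genes with the largest ratio in each direction in double-positive cells (vertical axis, Nefl left out at 0). All 15 low genes lie below 0 in both libraries, and Sema7a alone of the high genes shown lies below 0 in H3WT 5-Aza.

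Promoters of the named genes were compared for letters only. RefSeq entries were found for 7 of the 15 high and 7 of the 15 low genes, and their median number of CpG sites was 21 and 6, against 7 over all promoters. The AP-1 motif TGANTCA, read on both strands, was in 3 of the 7 high promoters (Plaur, Sprr1a and Tmem37), in 2 of the 7 low ones (Igf1 and Il1rn) and in 7.81% of all promoters. The motif holds no CpG. With 7 promoters a side no difference can be read from these shares.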

How the data were processed

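Single-cell RNA sequencing was analysed for 4 libraries, 1 per condition. The deposited files hold whole UMI counts without normalization, which the authors obtained on mm10 by Cell Ranger (6 per the submitters' processing notes, 6.1.0 per the file headers). Of 39891 barcodes, 22049 with at least 5000 UMIs, 1500 genes and at most 20% mitochondrial UMIs were kept, with 84060490 to 110712425 UMIs per library. No doublets were removed. Counts were summed per class, scaled to CPM and compared as log2 ratios with a pseudocount of 1 CPM, for genes of at least 10 CPM in either class. Named genes are the 4 markers, the 15 with the largest ratio each way among other genes of at least 50 CPM, those most alike in pattern, and members of lists. The members and lists were chosen with earlier results of these data known. Clusters and phases came from Seurat 5.3.0 with sctransform 0.4.2 in R 4.3.3, with cell cycle scores regressed, 20 principal components and a resolution of 0.2. Depth matching used 10 bins of UMIs. Gene positions are those of GENCODE M21. Other steps used Python 3.11.15. On simulated sums of 8747 genes for the 2 classes, genes changed 2-fold gave a median log2 ratio of 0.99 and 0 unchanged genes passed 2-fold. Alternatives changed the rule, cell filter, comparison cells, depth, scaling, pseudocount, minimum level and clustering.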

Additional observations from a re-analysis of the deposited data

Results flagged for a closer look

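Barcodes that the cell filter leaves out also met the rule: 8 of the 4491 left-out barcodes of H3R26C 5-Aza (0.178%, exact binomial interval 0.0769% to 0.351%) had at least 2 Msln UMIs and at least 1 of Cd34. They drew attention because they lie outside the data compared and because the left-out barcodes of the other libraries held 0. Their UMIs ran from 1848 to 15061, with a median of 4171.5.

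Fcer1g went in opposite directions in the 5-Aza libraries. In cells with at least 1 Msln UMI its log2 ratio over cells with neither gene was -1.57 in H3WT 5-Aza, on 4 UMIs in 57 cells, and 0.76 (0.61 to 0.90) in H3R26C 5-Aza. Of those cells, 7 of 57 in H3WT 5-Aza and 328 of 1101 in H3R26C 5-Aza also had Cd34, with which Fcer1g went in the classes compared. In H3R26C 5-Aza cells with at least 2 Msln UMIs and no Cd34, Fcer1g was 7.03 CPM against 13.9. That is lower, as in the H3WT cells. The difference between the libraries was not tested.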

How the results depend on the processing

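No paired analysis was possible because there is a single library for every condition. For the same reason no library could be left out. The share of double-positive cells, 3.14% with the rule as given, was 1.04% when cells were first thinned to 5000 UMIs, 3.83% with a filter of 10000 UMIs, 2500 genes and 10% mitochondrial UMIs, 2.53% with at least 3 Msln UMIs, 2.22% with at least 2 Cd34 UMIs and 4.31% with at least 1 Msln UMI. The log2 ratio of Spp1, 1.38, stayed positive and was 1.36 with matched UMIs, 1.26 with matched phases, 1.68 after thinning, 1.34 with the stricter filter, 1.45 with at least 3 Msln and 2 Cd34 UMIs, 1.86 without the 10% of cells with most UMIs, 1.40 when centred on the median, 1.67 as a mean of per-cell CPM, 1.42 without muscle-rich cells and 2.00 within G1. That of Hmga2, 2.31, was 1.75 with matched UMIs, 1.71 with matched phases, 2.55 with the stricter rule, 2.46 without the cells of most UMIs and 2.43 within G1. The count of genes at least 2-fold higher, 359, was 203 with matched UMIs, 234 with matched phases, 218 with a pseudocount of 5 CPM, 136 with a minimum of 50 CPM and 555 with one of 1 CPM, and the count lower, 584, was 223 and 1128 with those minimums. The largest share of double-positive cells in a cluster, 72.0%, was 63.6% and 60.7% when the library was clustered alone with and without Msln and Cd34 among the variable genes. The fits without muscle-rich cells, within G1 and on the library alone were added after the data were seen. For the 30 genes with the largest ratios, the 4 markers left out, 360 values under 12 alternatives kept their direction and stayed at least 2-fold, 0 reversing. The cause of these movements was not tested. Low genes are limited by depth: a count of 0 in the double-positive class rests on 4947129 UMIs.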

Other observations

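Chromosomes differed in how many of their compared genes were higher or lower in double-positive than in double-negative cells. On chromosome 1, 47 of 526 genes were at least 2-fold higher and 25 lower, with a median log2 ratio of 0.21, and on chromosome 5, 37 of 565 were higher and 22 lower, with a median of 0.15. On chromosome 10, 5 of 478 genes were higher and 58 lower, with a median of -0.18, and on chromosome 9, 6 of 485 were higher and 48 lower, with a median of -0.20. Hmga2 is 1 of the 5 on chromosome 10. Over all genes compared 3.98% were higher and 6.47% lower, with a median of -0.02. These values were not tested.

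Genes picked after their values were seen add to the description of the cells. Etv4, an ETS transcription factor, was 34.8 CPM in double-positive and 5.74 in double-negative cells, Itga6, a laminin-binding integrin chain, 88.3 against 24.4, and Nes (nestin), an intermediate filament of progenitors, 139 against 51.1. Slc2a1, the glucose transporter, was 108 against 52.9 and Ldha, lactate dehydrogenase, 2656 against 1441. With Msln alone, Etv4 was 32.5 CPM, Itga6 72.9, Nes 148, Slc2a1 83.7 and Ldha 2340. Higher levels of these genes were thus not particular to double-positive cells. Against depth-matched cells the log2 ratios were 1.79 for Etv4, 1.24 for Itga6, 0.84 for Nes, 1.03 for Slc2a1 and 0.66 for Ldha.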
